A study of Mus musculus with 10 samples.

Results

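Discoidin domain receptors are transmembrane tyrosine kinases that bind triple-helical collagen outside the cell and signal inside it. The 2 genes of the family in the mouse, Ddr1 and Ddr2, were followed here in lists of accessible chromatin regions from muscle stem cells after prostaglandin E2 (PGE2). Members were chosen by the position of the strongest summit of a region, the one with the highest deposited −log10 q-value, which had to lie within 50 kb of the GRCm38 span of either gene. The rule gave 89 of 131656 regions in the young list, 72 at Ddr2 and 17 at Ddr1, and 59 of 117284 regions in the aged list, 40 at Ddr2 and 19 at Ddr1. The genes were proposed with earlier results of these lists known, so their counts are given as a description, with no test.

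The assay was ATAC-seq, which uses a transposase to cut open DNA and label it for sequencing. The cells carried α7-integrin and CD34, came by flow sorting from C57BL/6 mice, and were kept in medium with serum and basic fibroblast growth factor, with PGE2 or the vehicle (0.1% DMSO) added at seeding, for 2 h. Of the 10 libraries, 4 came from young cells (2 with the vehicle, 2 with PGE2) and 6 from aged cells (3 with the vehicle, 3 with PGE2), with mice of 8 to 20 weeks (young) and of 20 to 25 months (aged). The values used here were 2 peak lists of PGE2-treated cells, 1 per age, and neither held a value per library. Vehicle cells were not analysed here, so an age difference that was there without PGE2 cannot be told apart from one in the response to it. No difference between the lists carries a replicate error, and the binomial intervals given with shares reflect only the number of regions.

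DDR1 is known mainly from epithelia and DDR2 mainly from fibroblasts and other mesenchymal cells. Both bind fibrillar collagens, and DDR1 also binds the collagen of basement membranes. Unlike most receptor tyrosine kinases they are activated slowly and for a long time. Muscle stem cells lie between the fibre and a basement membrane, so collagen is part of their surroundings. PGE2 is a lipid signal released in injured muscle.

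The promoter windows held for the pair differ in sequence and in whether a region covered them. They are shown because accessibility at a start can be read against its content of CpG, a C followed by a G, which is frequent at the starts of widely used genes. RefSeq's promoter windows on GRCm38.p6, from 250 bases before a start to 50 after it, held 4 starts of Ddr1 and 1 of Ddr2, all on the minus strand. The end of the Ddr2 span on its start side, at chr1:170110836, had no window, so its sequence was not examined. A region of each list lay across that end. The Ddr2 window and the outermost and innermost windows of Ddr1 follow, 5′ to 3′, with each CpG in capitals.
Ddr2, chr1:170088895-170089194: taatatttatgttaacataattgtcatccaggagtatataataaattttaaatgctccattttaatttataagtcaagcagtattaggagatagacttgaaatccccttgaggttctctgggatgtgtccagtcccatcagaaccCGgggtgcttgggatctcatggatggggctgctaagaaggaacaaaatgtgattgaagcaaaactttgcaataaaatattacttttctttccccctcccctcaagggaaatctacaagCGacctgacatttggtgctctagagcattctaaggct
Ddr1 outermost start, chr17:35704550-35704849: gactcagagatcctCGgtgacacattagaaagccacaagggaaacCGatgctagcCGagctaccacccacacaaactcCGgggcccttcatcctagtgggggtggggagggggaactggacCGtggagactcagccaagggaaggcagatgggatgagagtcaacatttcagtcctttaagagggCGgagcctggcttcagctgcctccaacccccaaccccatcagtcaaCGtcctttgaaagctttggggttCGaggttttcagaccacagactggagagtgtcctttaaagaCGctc
Ddr1 innermost start, chr17:35700541-35700840: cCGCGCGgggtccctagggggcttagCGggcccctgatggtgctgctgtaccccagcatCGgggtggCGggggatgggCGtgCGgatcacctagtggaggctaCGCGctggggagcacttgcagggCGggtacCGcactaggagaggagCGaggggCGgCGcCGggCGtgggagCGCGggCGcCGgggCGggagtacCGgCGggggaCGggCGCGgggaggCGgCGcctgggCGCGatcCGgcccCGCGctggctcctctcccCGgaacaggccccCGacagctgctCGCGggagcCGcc
The Ddr2 window held 2 CpG at a GC content of 39.0%, and no region of either list overlapped it. The nearest region ended 432 bp from that start in the young and 412 bp from it in the aged list. The innermost Ddr1 window held 39 CpG at a GC content of 77.7%, and 4.45% of the 32851 RefSeq windows held as many. The other Ddr1 windows held 9, 7 and 10 CpG, from the outermost inward. All 4 Ddr1 windows were overlapped by a region in both lists, where young regions overlapped 49.9% of all windows and aged regions 47.4%. Among windows with 0 to 2 CpG the shares were 7.24% (young) and 6.22% (aged), and with 20 or more CpG they were 96.5% and 94.6%. Motifs were counted on both strands. The AP-1 letters TGANTCA stood once in the Ddr1 window at chr17:35701995-35702294 and in none of the other 4, and 7.81% of all windows held them. The full cAMP response letters TGACGTCA were in none of the 5, against 1.79% of all windows. The GC box GGGCGG stood 3 times in the innermost Ddr1 window, once each in the outermost and in that at chr17:35701995-35702294, and in neither the remaining Ddr1 window nor that of Ddr2, and 35.7% of all windows held it.

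At the start side of Ddr2 the same wide stretch was open in both lists. Ddr2 (gene 18214) spans chr1:169972307-170110836, 139 kb on the minus strand, so its start side is the end with the higher number. In the young list a region of 12 summits ran over chr1:170108069-170113006, across that end. Its strongest summit lay 1296 bp upstream of the end, at 121-fold over background, a rank above 99.1% of the young regions. The aged region, chr1:170108695-170112650, had 10 summits and its strongest 1290 bp upstream, at 81.7-fold, above 99.1% of the aged regions. A second summit stood beside it in each list, 1116 bp upstream at 99.6-fold in the young list and 1118 bp upstream at 69.2-fold in the aged list. Folds are the authors' values and depend on the depth of each list, so a young and an aged fold side by side are no measure of change. The 1 Ddr2 start that had a promoter window, printed above, lies 21.9 kb further into the gene.

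**Figure D1:**
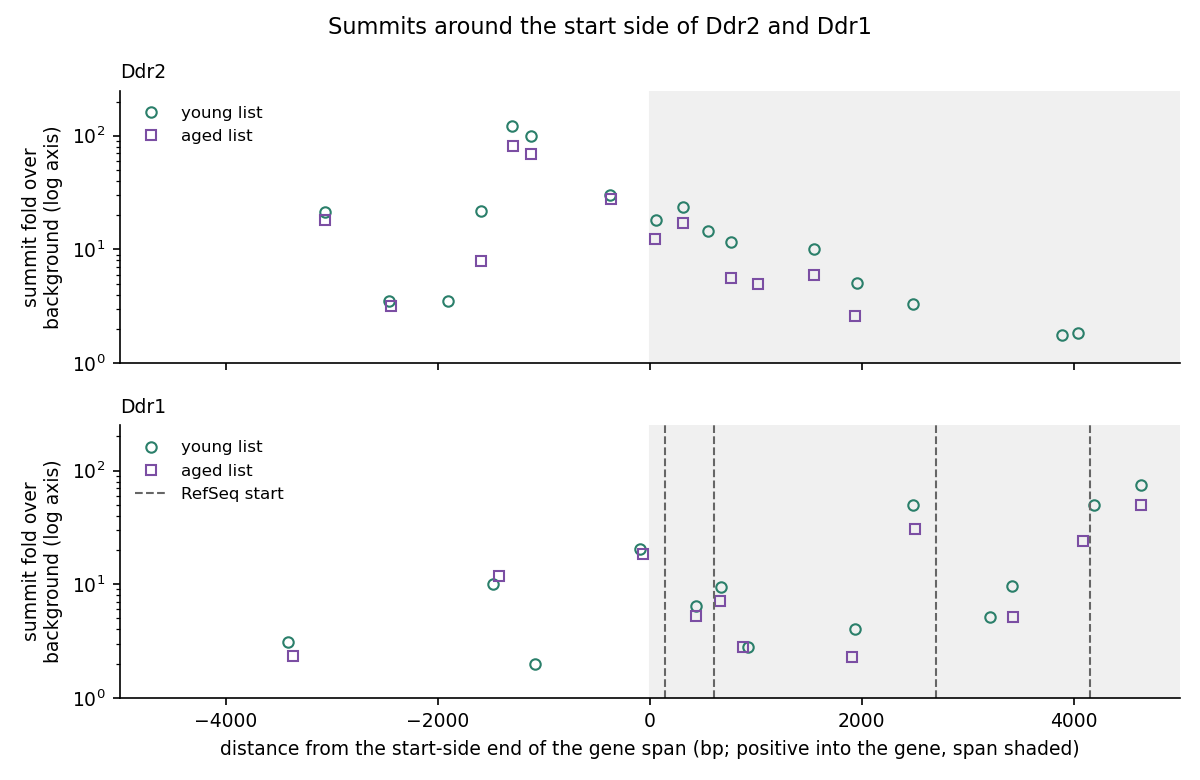
Summits within 5000 bp of the start-side end of Ddr2 (top) and Ddr1 (bottom), by distance from that end in bp (horizontal) and deposited fold over background (vertical, log axis), with circles for the young and squares for the aged list. Dashed lines are RefSeq starts that had a promoter window. The Ddr2 summits peaked 1296 and 1290 bp upstream of the span. The only Ddr2 start with a promoter window lies 21.9 kb inside the span, off the plot, and the span's end itself had no window. The 4 Ddr1 starts lay 142 to 4151 bp inside the Ddr1 span, among summits of both lists.

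Inside Ddr2 and upstream of it, the other strong regions were also present in both lists, at nearly the same positions. The strongest inner region had its summit 52.6 kb from the start-side end in each list, at 92.0-fold in the young list (chr1:170056025-170058794) and 88.3-fold in the aged list (chr1:170056170-170058784). A neighbour 51.2 kb from the end reached 49.96-fold in the young and 39.9-fold in the aged list. Further in, regions stood 67.8 kb from the end (40.8-fold and 29.2-fold) and 99.5 kb from it (39.3-fold and 22.0-fold). Upstream of the gene, a region 25.7 kb from the end (young) or 25.8 kb from it (aged) had 46.4-fold and 32.3-fold. The region with the highest fold in the window, 183-fold in the young and 122-fold in the aged list, lay at the start of a neighbour, Hsd17b7. That gene encodes an enzyme of steroid and cholesterol synthesis. The region also lay over an end of a long noncoding RNA gene, 3110045C21Rik (chr1:169969409-169972396).

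The order of the start and inner sites differed between the lists. In the young list the start-side summit was the higher, at 2747 fragments (95% Poisson interval 2645 to 2852, counting error only) against 2088 (1999 to 2180) at the strongest inner summit, a ratio of 1.32. In the aged list the inner summit was the higher, at 1836 fragments (1753 to 1922) against 1700 (1620 to 1783), a ratio of 0.926. Each ratio is taken within 1 list. Fragment counts were recovered from the deposited folds, and duplicates from PCR were not separable. The unit that the caller counted is not given, so the counts may be of read ends rather than fragments. If a fragment was counted more than once, the intervals are too narrow. No value per library was used, so this difference in order was not tested.

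Most Ddr2 regions of the young list had no counterpart in the aged list, and these were weak. No aged region overlapped 43 of the 72 young regions by even 1 bp, and these are called young-only (59.7%, with a 95% exact binomial interval from 47.5 to 71.1); over the whole young list the share was 28.2%. Of the 40 aged regions, 3 (7.50%, 1.57 to 20.4) were aged-only, against 10.7% over the whole aged list, a direction that turned when reciprocal overlap of 50% was required (55.0% against 33.9%). The young-only regions had a median fold of 2.38, a range from 1.76 to 6.21 and a median width of 252 bp. The 29 other young regions had a median fold of 10.8 and a median width of 1031 bp. Young-only regions made up 24.6% of the 46.5 kb that young regions covered at Ddr2.

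Weak regions were frequent at Ddr2, and over the whole young list weak regions were more often young-only than strong ones. In the young list 36 of its 72 regions (50%, 38.0 to 62.0) were below 3-fold, against 27.3% of all young regions. Within strength classes the young-only share at Ddr2 was 33 of 36 (91.7%, 77.5 to 98.2) below 3-fold, where all young regions gave 66.1%. It was 10 of 21 (47.6%, 25.7 to 70.2) from 3-fold to below 10-fold, where all gave 23.2%. At 10-fold and above it was 0 of 15, which allows a share of up to 20.0%, where all gave 0.0733%. Ddr1 had too few regions per class to read a share, with 0 of 2 young-only below 3-fold, 1 of 4 from 3-fold to below 10-fold and 0 of 11 at 10-fold and above. The higher share at Ddr2 thus stood in both weaker classes. When both lists were cut to 3-fold and above before they were compared, 11 of 36 young regions (30.6%, 16.3 to 48.1) were young-only, near the 25.6% of all young regions under that cut. With the strongest regions of each list in equal number the share was 6 of 23 (26.1%, 10.2 to 48.4), against 15.4% of all.

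**Figure D2:**
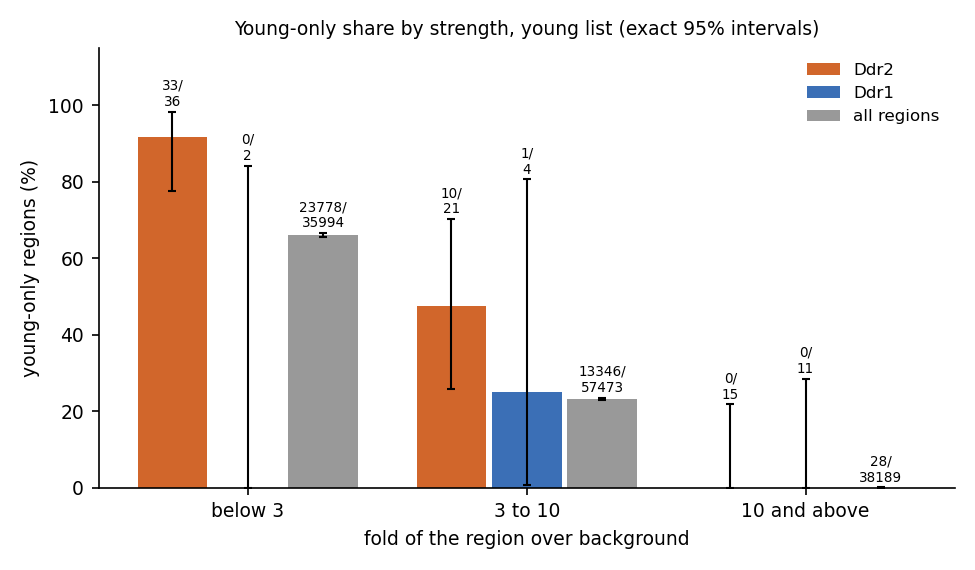
Share of young regions with no overlap in the aged list (vertical, %) by the region's fold over background (horizontal), for Ddr2, Ddr1 and all regions, with exact 95% binomial intervals over regions and the counts above the bars. The share at Ddr2 was 91.7% below 3-fold and 47.6% from 3 to 10-fold, above 66.1% and 23.2% of all regions, and 0 of 15 at 10-fold and above.

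The young-only regions of Ddr2 were spread along the gene body rather than gathered at its start. Inside the span 33 of 52 young regions (63.5%, 49.0 to 76.4) were young-only, and in the flanks 10 of 20 (50%, 27.2 to 72.8), with intervals that overlap. Of the aged regions, 25 lay inside the span and 1 of them was aged-only. Between the regions 99.5 kb and 67.8 kb from the start-side end lay 30.2 kb with 9 young-only regions of 2.29-fold to 4.05-fold and a single aged region, itself aged-only at 2.88-fold. A stretch of 20.2 kb nearer the far end held 3 young-only regions of 3.13-fold to 4.80-fold and no aged region. Both stretches were picked as the longest gaps between neighbouring shared young regions inside the span. Any region within such a gap is one-age by construction, so only the numbers and folds there are informative. Of the 43 young-only regions, 12 lay within 1 kb of an aged region, 31 farther, and 7 more than 5 kb away.

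**Figure D3:**
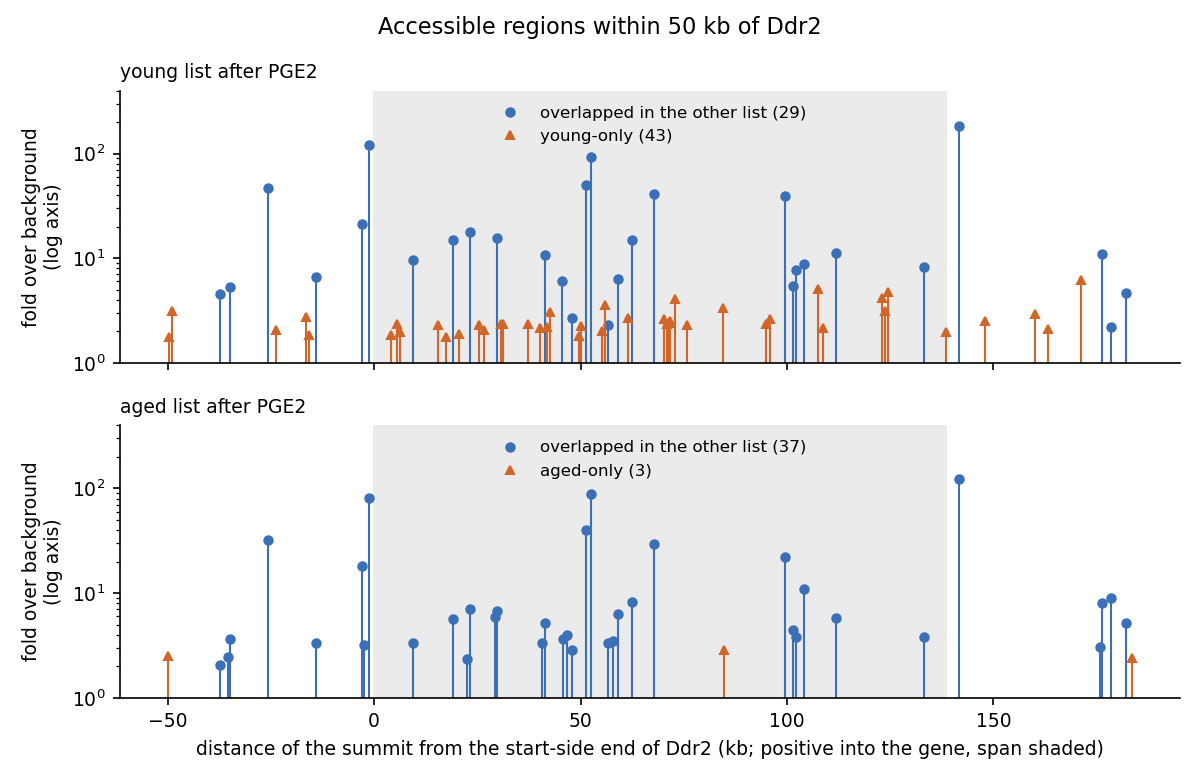
Regions within 50 kb of Ddr2 in the young (top) and aged list (bottom), by distance of the summit from the start-side end in kb (horizontal, span shaded) and fold over background (vertical, log axis). Circles are regions overlapped in the other list and triangles are one-age regions. The tall sites, among them those near 0, 52.6, 67.8 and 99.5 kb, stand in both lists, while 43 young-only triangles of at most 6.21-fold fill the young panel and 3 aged-only triangles stand in the aged panel.

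The strongest young-only regions at Ddr2 were of middle rank in their list. The highest, chr1:169939210-169939677, lay in the far flank between Ccdc190 and Hsd17b7, with 6.21-fold (140 fragments, 118 to 165) and a rank above 58.1% of young regions. Inside the gene, 5.06-fold was reached at chr1:170003069-170003370, 4.80-fold at chr1:169986173-169986751, 4.14-fold at chr1:169987702-169987956 and 4.05-fold at chr1:170037784-170038049. The other 5 of at least 3-fold ran from 3.08-fold to 3.57-fold. Of these, chr1:170159816-170159967 (3.13-fold) lay 49.1 kb upstream of the gene and the rest inside it. In all, 10 of the 36 young Ddr2 regions of at least 3-fold (27.8%, 14.2 to 45.2) were young-only, against 14.0% of all young regions of that strength. None of the 33 aged regions of at least 3-fold was aged-only, which allows a share of up to 9.09%, against 2.40% of all such aged regions.

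Regions covered more of the Ddr2 window in the young list, with more regions there and with wider shared ones. Young regions covered 46.5 kb and aged regions 26.9 kb, a ratio of 1.73, where the ratio over the whole lists was 1.29. One-age regions covered 11441 bp of this in the young and 530 bp in the aged list. Shared regions had a median width of 1031 bp in the young and 469 bp in the aged list. The aged median includes the pieces of young regions that overlapped 2 aged regions, and no such median was taken over the whole lists. The mean width of all regions at Ddr2 was 646 bp in the young list, which held many narrow young-only regions, and 672 bp in the aged list. Over the whole lists the mean width was 701 bp (young) and 610 bp (aged). Of the 29 shared young regions, 8 overlapped 2 aged regions each, and no aged region overlapped more than 1 young region. Over the whole lists, 10.8% of shared young regions overlapped 2 or more aged regions. The strongest summits of shared regions lay within 20 bp of each other for 22 of 29 at Ddr2 and 10 of 16 at Ddr1, against 60.6% of all shared young regions.

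Ddr1 was covered by nearly the same regions in both lists. Ddr1 (gene 12305) spans chr17:35681567-35704741, 23.2 kb on the minus strand, with Gtf2h4, which encodes a subunit of transcription factor TFIIH, and Vars2, a mitochondrial tRNA synthetase gene, behind its far end. Of 17 young regions 1 was young-only (5.88%, 0.149 to 28.7; 28.2% over the whole list), and of 19 aged regions 1 was aged-only (5.26%, 0.133 to 26.0; 10.7% over the whole list). The young-only region had 3.39-fold and lay at the end of Mucl3, a neighbour that encodes a mucin-like protein. The aged-only region had 2.45-fold and lay upstream of Ddr1. In the young list 11 of 17 regions (64.7%) were of at least 10-fold, and in the aged list 12 of 19 (63.2%), against 29.0% and 25.4% of all regions.

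The strongest Ddr1 regions covered the inner starts. In the young list a region of 6 summits ran over chr17:35699633-35702914 and covered both inner RefSeq starts, with 75.2-fold at its strongest summit. In the aged list the same stretch held 3 regions, of 50.1-fold, 30.9-fold and 2.31-fold. The strongest summits of the 2 lists lay 4632 and 4631 bp inside the start-side end. A neighbouring region about 6.6 kb inside the gene, chr17:35697172-35698734 in the young list, had 60.5-fold and, in the aged list, 49.1-fold. The region over the outer starts was lower, at 20.4-fold in the young and 18.5-fold in the aged list, with its summit 231 bp before the outermost start in the young and 204 bp before it in the aged list. The inner regions were thus the higher ones within each list.

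**Figure D4:**
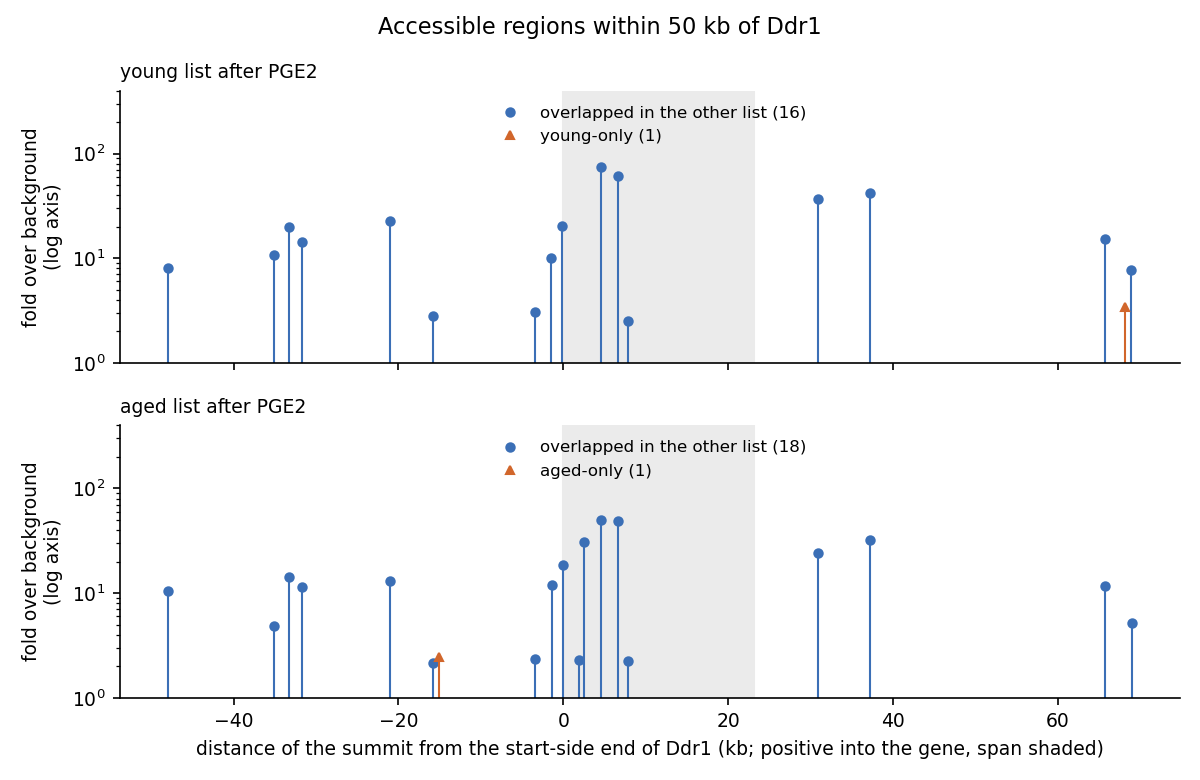
Regions within 50 kb of Ddr1 in the young (top) and aged list (bottom), with axes and symbols as for Ddr2. The 16 shared young and 18 shared aged regions stand at the same places, the strongest 4632 and 4631 bp inside the start-side end, and each list has 1 weak one-age region.

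Upstream of Ddr1, outside any protein-coding gene, further regions were shared. One lay 21.0 kb upstream, at 22.7-fold in the young and 12.9-fold in the aged list. A group 31.7 to 35.1 kb upstream had 14.2-fold, 19.9-fold and 10.7-fold in the young list and 11.3-fold, 14.2-fold and 4.90-fold in the aged list. The regions at Gtf2h4 and Vars2 had 36.5-fold and 42.2-fold in the young list and 24.1-fold and 32.2-fold in the aged list, and they belong to the starts of those genes. Of the young Ddr1 regions 4 lay within 1 kb of an end of another protein-coding gene, and of the young Ddr2 regions 3 did. The outer part of the upstream flank of Ddr2 lies within another protein-coding gene, Uap1 (chr1:170141223-170174964), and regions in its body are not in that count. A long noncoding RNA gene, Gm4577 (chr17:35704077-35708371), overlaps the start side of Ddr1.

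The limit of 50 kb cut between regions of both kinds. At Ddr2 the outermost young member, 239 bp inside the limit, was young-only at 1.76-fold, and the first young region outside it, 484 bp beyond the other limit, was shared at 17.3-fold. At Ddr1 the outermost young member lay 2051 bp inside the limit at 8.06-fold, and the first region outside it lay 4245 bp beyond, at 6.60-fold, both shared.

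Among all protein-coding genes the pair stood near opposite ends of the young-only share. The median share over the 10908 genes with 10 or more young regions within 50 kb was 27.3%. Ddr2 stood above 97.2% of these genes and Ddr1 above 3.18%. These ranks take no account of strength. Of the 17 young Ddr1 regions 11 were of at least 10-fold, a class where 0.0733% of all young regions were young-only. Of the 72 young Ddr2 regions 36 were below 3-fold, where 66.1% of all were. The part of strength in the ranks was not tested. For the aged-only share the median over 9331 genes with 10 or more aged regions was 7.14%, with Ddr2 above 52.7% of genes and Ddr1 above 39.9%. Regions were dense at Ddr2, with 30.2 young and 16.8 aged regions per 100 kb, above 99.5% and 91.8% of 21887 genes. Ddr1 had 13.8 and 15.4 per 100 kb, above 81.6% and 89.3%. Genes that lie close together share regions, so these percentiles are descriptive.

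**Figure D5:**
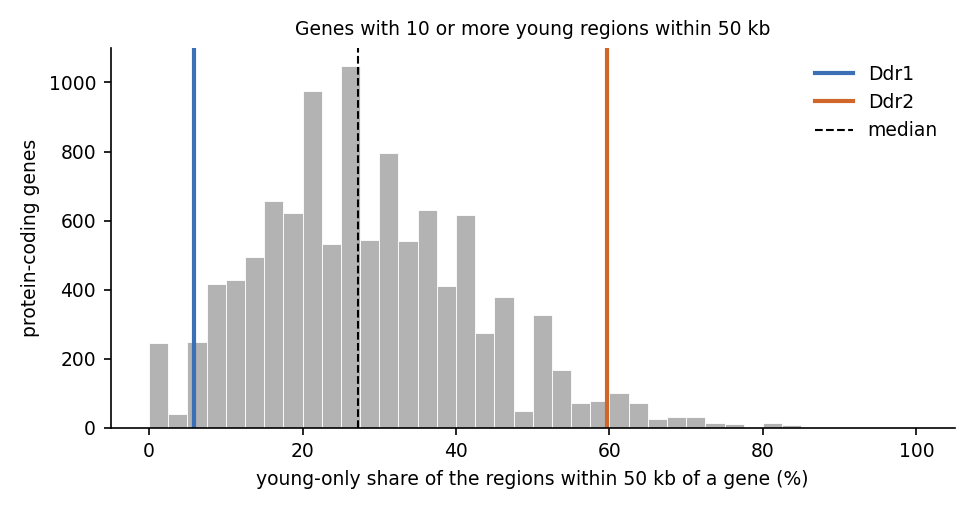
Number of protein-coding genes (vertical) by the young-only share of the young regions within 50 kb (horizontal, %), over the 10908 genes with 10 or more such regions. The solid lines mark Ddr1 at 5.88% and Ddr2 at 59.7%, on either side of the median of 27.3% (dashed). The shares are not adjusted for the strength of the regions.

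Likeness was measured over the 2 lists as the Euclidean distance between genes in 4 values, the numbers of young and aged regions within 50 kb (log2 of the number plus 1) and both one-age shares. Nearest to Ddr2 were Spsb1 (distance 0.200; 33 of 68 young and 1 of 44 aged regions one-age), Zfand3 (0.297; 25 of 62 and 2 of 42) and Wwtr1 (0.338; 22 of 62 and 0 of 42). Wwtr1 encodes TAZ, a coactivator of the Hippo pathway. All 3 had a lower young-only share than Ddr2. Sde2, Fancg and Agrp had the same 4 values as Ddr1, with 1 of 17 young and 1 of 19 aged regions one-age. None of these genes shares a window with the receptor it resembles.

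Of the other collagen receptors, 6 were open in both lists, and the young-only shares of these 6 lay between those of Ddr2 and Ddr1. The lists of related genes were drawn up with earlier results known. Of 10 collagen receptor genes, 8 were open at a gene end, meaning that a region lay no more than 1 kb from an end of the gene, in both lists. Gp6 and Lair1, receptors of platelets and leukocytes, were open there in neither. Of all protein-coding genes 63.3% were open at a gene end at both ages, 3.20% in young cells alone, 0.480% in aged cells alone and 33.0% at neither age. Itgb1, the β1 integrin chain shared by the collagen-binding integrins, had 130-fold in the young and 77.7-fold in the aged list, Itga1 53.3-fold and 27.8-fold, and Itga10 24.6-fold and 20.7-fold. Ddr2 stood second to Itgb1 in the young list at 121-fold and first in the aged list at 81.7-fold, while Ddr1 had 20.4-fold and 18.5-fold. Each fold is that of the region's strongest summit, which can lie more than 1 kb from the end. At Ddr2 it lay 1296 bp (young) and 1290 bp (aged) upstream. The highest Ddr2 summits within 1 kb had 30.3-fold (young) and 27.8-fold (aged), and the receptors were not ranked by that measure. The gene-end folds also depend on the limit of 1 kb. Regions that reached within 2.5 kb of an end of Ddr1 had up to 75.2-fold (young) and 30.9-fold (aged). Those are different sites, with summits 4632 bp (young) and 2501 bp (aged) inside the end. The aged region at the first of them, at 50.1-fold, did not reach that limit. The highest region within 2.5 kb of an end of Ddr2 was the one of Hsd17b7. The young-only share was 24.2% at Itgb1, 26.7% at Itga10, 28.6% at Itga2, 29.2% at Mrc2, 31.8% at Itga1 and 33.3% at Itga11, each over fewer than 40 regions, against 59.7% at Ddr2 and 5.88% at Ddr1.

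Collagen genes, the ligands, were open at a gene end in both lists for 10 of 11, with Col10a1 the exception. Col5a1 (48.8-fold young, 45.0-fold aged) and Col5a2 (44.9-fold and 25.4-fold) encode chains of a collagen that joins fibrils. Col4a1 and Col4a2, the basement membrane chains, share 1 start region (41.0-fold and 22.6-fold). Their young-only shares were 41.2% and 38.8%, over windows that largely overlap, and the median over 8 ligand genes with 10 or more young regions was 25.0%. Of 15 adaptors and enzymes reported to act below the receptors, 15 were open at a gene end in both lists, led in the young list by Rasa1 (205-fold young, 106-fold aged), Nck1 (171-fold and 110-fold), Myh10 (136-fold and 72.9-fold) and Pik3c2a (131-fold and 73.7-fold). Their median young-only share was 27.8% over 13 genes, and Ptpn11, which encodes the phosphatase SHP2, had 9 of 15 young regions young-only.

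Of 8 genes reported as targets or partners of DDR2, 6 were open at a gene end in both lists, and Mmp13 and Runx2 in neither. Ccn1, a matrix-associated growth regulator, had 91.1-fold in the young and 44.5-fold in the aged list, Lox, a collagen cross-linking enzyme, 48.6-fold and 57.1-fold, Snai1, a transcription factor stabilised by DDR2 signalling, 37.4-fold and 26.3-fold, and Mmp14, a membrane collagenase, 26.6-fold and 22.5-fold. Their median young-only share was 19.3% over 6 genes. Of 11 integrin and adhesion genes 10 were open at a gene end in both lists, led by Vcl (158-fold young, 102-fold aged), Ilk (111-fold and 81.8-fold), Tln1 (82.1-fold and 52.3-fold) and Pxn (69.2-fold and 72.7-fold), with a median share of 27.6%. Among them Ptk2, which encodes focal adhesion kinase, had 18 of 30 young regions young-only (60.0%), as high as Ddr2, and Itgb3, the β3 integrin chain, 8 of 15 (53.3%), both named after their values were seen. Of 10 other receptor tyrosine kinase genes 10 were open at a gene end in both lists, led by Met (108-fold and 59.4-fold), Fgfr1 (82.6-fold and 40.6-fold), Egfr (81.7-fold and 58.9-fold) and Igf1r (75.2-fold and 40.03-fold). Their median share was 26.9%, from 15.9% at Met to 49.0% at Fgfr1 (24 of 49 young regions). All these medians lay within a few points of the 27.3% of all genes, apart from that of the targets, which lay lower.

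Markers of the sorted cells and of others stood as follows. All 8 muscle stem cell markers (Pax7, Myf5, Itga7, Cd34, Vcam1, Calcr, Sdc4 and Cxcr4) were open at a gene end in both lists, from 26.7-fold to 111-fold in the young and 16.6-fold to 45.3-fold in the aged list. All 6 fibroblast markers were too, from 2.38-fold (Lum) to 39.4-fold (Col3a1) in the young list and 2.55-fold to 16.4-fold in the aged list. Their folds summed to 95.1 in the young and 53.8 in the aged list, and those of the muscle stem cell markers to 386 and 252. The sums were lower in the aged list for the epithelial (15.5 and 6.44), endothelial (9.99 and 2.69) and immune markers (39.97 and 31.5) too, and, as said of folds above, they do not measure a change. Dcn, a fibroblast marker, had 3.79-fold and 5.19-fold. Since fibroblasts carry much DDR2, their part in the Ddr2 regions was not tested. In bulk samples fewer cells of a type and less signal per cell cannot be told apart. Of the 5 epithelial markers, Cdh1, Krt18 and Krt14 had no gene-end region in either list, and Epcam and Krt8 had 9.51-fold and 5.99-fold in the young list and 3.08-fold and 3.36-fold in the aged list. Of 6 endothelial and immune markers, Pecam1, Ptprc and Cd3e had none in either list, Cdh5 had one in the young list only (1.98-fold), and Kdr (8.01-fold young, 2.69-fold aged) and Cd68 (39.97-fold and 31.5-fold) were open in both. Cd68, a macrophage marker, thus stood as high as some of the muscle stem cell markers. A gene-end region can belong to an adjacent gene, which was not checked for the markers.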

How the data were processed

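The submitters' processing notes name Bowtie2 as a tool and mm10 (GRCm38) as the genome build for the ATAC-seq reads. The deposited files are 2 narrowPeak lists in the layout of MACS, one per age after PGE2. Not given in the sources used here are the caller's version and options, read filters, any shift of read ends and the pooling of libraries. For each summit the authors deposited a score, a fold ratio over background and a −log10 q-value. A longer list may come from more fragments, and the depth per library is unknown. Every fold checked was a whole multiple of 1 step within 0.05 steps. This gave backgrounds of 21.7 (young) and 19.8 (aged) fragments and the fragments at each summit. They are called fragments although the unit that the caller counted is not given. The highest folds, among them the 121-fold of the young start-side summit of Ddr2, were converted with the same step but not checked.

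Touching or overlapping rows were merged (Python 3.11.15, pandas 2.3.3, scipy 1.17.1), and a region was shared at 1 bp of overlap. Merging and overlap were tested on simulated data. Exact intervals are at 95%, and a count of 0 allows 3 counts. Gene spans and promoter sequences came from RefSeq GRCm38.p6, where all listed genes were found. Gene ends are both ends of a span, within 1 kb. With 1 list per age no test was made.

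Members and lists were chosen with earlier results of these data known. Named were both receptors, the strongest regions and one-age regions of at least 3-fold, neighbouring genes, up to 4 genes per list (one-age first, then strongest in the young list) and the 3 genes most alike. Alternatives covered thresholds, overlap, merging, windows and neighbours.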

Additional observations from a re-analysis of the deposited data

How the results depend on the processing

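The young-only share at Ddr2 (59.7%) ran from 26.1% to 75.0% over 12 settings and stayed above the share of all young regions in each setting where that was computed. It was 26.1% with the strongest regions in equal number, 30.6% at 3-fold and above in both lists, 36.5% with rows not merged (16.3% of all rows), 75.0% with reciprocal overlap of 50% (41.2% of all regions), and 43.1% when no aged region within 1 kb was required (19.02% of all), a setting chosen after seeing the data. The aged-only share at Ddr2 (7.50%) moved to 55.0% with reciprocal overlap, 32.5% with summits within 100 bp and 0% with the 1 kb requirement, where all aged regions gave 33.9%, 28.2% and 5.74%. It thus lay below the share of all aged regions (10.7%) as reported and above it under the first 2 of these settings and with the strongest regions in equal number (14.3% against 11.1%). At Ddr1 both shares rest on 1 region each and fell to 0% in equal number, within windows of 10 kb and with the 1 kb requirement. The Ddr1 young-only share was also 0% without regions at ends of other genes, and the aged-only share 0% at 3-fold and above. Other settings raised them. The young-only share reached at most 13.3%, at 3-fold and above in both lists, where all young regions gave 25.6%. The aged-only share reached at most 21.1%, with reciprocal overlap of 50%, where all aged regions gave 33.9%. Stricter settings hold fewer regions by construction. For the other moves the cause was not tested. Both genes kept a gene-end region in both lists with windows of 500 bp and 2.5 kb and at a −log10 q of at least 5. No paired analysis was possible because each age has 1 list, without values for single libraries, and no replicate could be left out for the same reason. The depth per library is unknown, so its part in the weak regions was not tested.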

Other observations

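Few genes with many regions had a young-only share as high as Ddr2. Of 460 protein-coding genes with at least 40 young regions within 50 kb, 6 including Ddr2 had a share of 59.7% or more, and their median was 25.6%. The other 5, named after their values were seen, were Vapa (33 of 48 young regions), Etf1 (29 of 45), Rtn4 (28 of 44), Atp2b1 (30 of 48) and Eml6 (29 of 47). The spans of Rtn4 and Eml6 overlap on chromosome 11, so their windows overlap too. Vapa encodes a tether between the endoplasmic reticulum and other membranes, Etf1 a translation termination factor, Rtn4 a protein that shapes the endoplasmic reticulum, and Atp2b1 a calcium pump of the plasma membrane. In the aged list these 5 genes had 18 to 24 regions, with 0 or 1 aged-only, while Ddr2 had 40 with 3 aged-only.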
